A study of Homo sapiens with 17 samples.

Results

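Lamina-associated domains (LADs) that gained H3K27me3 over most of their length in replicative senescence, without a matching gain of H3K4me3 in both forms of senescence, numbered 211 of the 2048 LADs mapped on chromosomes 1 to 22 and X (hg18). They were chosen from the region lists of the study: a LAD entered when at least 50% of its base pairs lay under H3K27me3 mesas, stretches taken as carrying more of the mark in senescent than in proliferating cells. Another 84 LADs that met this threshold were left out because replicative and Ras-induced H3K4me3 mesas also covered at least 50% of each. The H3K27me3 values below are therefore a description of the choice and support nothing. The deposited lists hold coordinates only, so no value exists per library and no error between cultures can be given; the depth of the libraries is unknown.

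The cells were IMR90, a human lung fibroblast line, and the 17 ChIP-seq libraries all derive from it. Replicative senescence was the contrast of proliferating cells (population doubling 24) with cells that serial passage had brought to doubling 87 and to arrest, and that stayed in dishes for 2 more weeks. Oncogene-induced senescence was the contrast of control cells at doubling 15 with cells at doubling 15 infected with the retroviral construct pLNC-ER:Ras, in which 100 nM 4-hydroxytamoxifen induced Ras; the labels do not say whether the controls carry the construct. H3K27me3 was profiled in 4 proliferating and 2 senescent libraries, H3K4me3 in 1 library of each of the 4 states, and lamin B1 in 1 library of proliferating cells. The LADs are thus those of proliferating cells, and H3K27me3 was profiled in replicative senescence and not in the Ras experiment.

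LADs are long, mostly gene-poor stretches of chromatin that lie at the nuclear periphery, where they contact the lamina, a meshwork of lamin filaments beneath the nuclear membrane. H3K27me3 is deposited by Polycomb repressive complex 2 and is found on silent developmental genes and in broad domains of facultative heterochromatin. H3K4me3 marks active and poised promoters and rarely covers long stretches. Lamin B1 falls in senescent fibroblasts, which is why the fate of LAD chromatin is studied there.

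The 211 LADs were long and held much of the H3K27me3 gained. Their median length was 1250 kb, with a range of 110 to 14060 kb, against 445 kb for all 2048 LADs. They made up 21.2% of LAD base pairs, or 391 Mb, and contained 57.2% of all H3K27me3 mesa base pairs on these chromosomes. Of LADs of 2000 kb and over, 31.7% (76 of 240) belonged to the group, and of those under 250 kb 3.40% (22 of 647). Over all LADs, 14.4% reached the H3K27me3 threshold, a share the rule itself fixes.

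**Figure D1:**
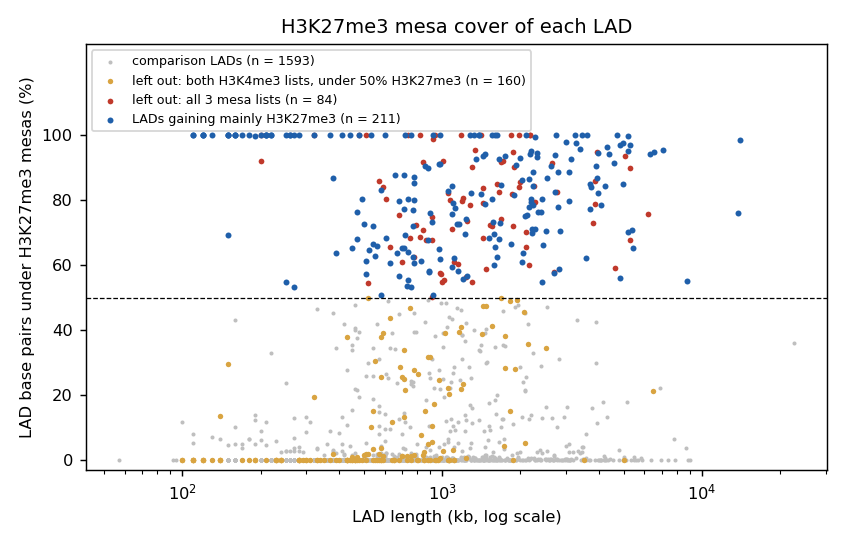
Share of each LAD's base pairs under H3K27me3 mesas (vertical axis, %) against its length (horizontal axis, kb, log scale) for the 2048 LADs. Each point is 1 LAD, the dashed line is the 50% threshold, and 47 of the 211 chosen LADs sit at 100%, 20 of the 22 shorter than 250 kb among them.

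Cover by H3K27me3 mesas ranged from 50.7% to 100% among the 211, with a median of 83.1%. It was 50 to 60% in 20 LADs and 100% in 47. The 47 fully covered LADs had a median length of 270 kb and each lay wholly inside 1 mesa, whereas the 38 LADs covered to between 90% and just under 100% had a median of 2670 kb. High cover was thus reached both by short LADs enclosed in a mesa and by long LADs filled by a single mesa or by several. The LADs just inside the threshold were at chr1:90240001-91160000 (50.7%), at chr21:15370001-15950000 (51.0%) and at chr4:23860001-24130000 (53.2%), none of them met by an H3K4me3 mesa. Just outside it were LADs at chr5:16010001-16530000 (49.9%) and chr5:176900001-178580000 (49.8%) and at chr22:23260001-25200000 (49.3%). These last 3 were at least 50% covered by both H3K4me3 lists, and the rule would have left them out in any case.

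Most of the LADs carried the gain as a single block. One H3K27me3 mesa met 134 of the LADs, 2 mesas met 37, and 3 or more met 40, with 14 mesas in the most divided LAD. In 193 of the 211, the longest single stretch alone covered at least 50% of the LAD. The 343 mesas that met a chosen LAD had a median length of 388 kb, and the mesas that met none had a median of 29.8 kb. The LADs are not independent of each other in this respect: 92 of them shared a mesa with another, and 1 mesa at chrX:13751401-23640199 (9.89 Mb) met 5.

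The mesas often ran past the LAD border. At least 1 edge was crossed by a mesa in 68.7% of the LADs: 90 had a mesa over 1 edge, 55 over both, and in 66 the mesas stayed within the LAD. Over all LADs, 13.6% had a mesa running over an edge. Among the 371 comparison LADs met by a mesa at all, 68 (18.3%) had one over an edge. Comparison LADs here are the 1593 LADs under 50% H3K27me3 cover, after removal of the 160 that both H3K4me3 lists covered to at least 50%, so that the same removal was made on each side.

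The longest LADs of the group show the block structure. On autosomes the longest was at chr12:123980001-131030000 (7.05 Mb), with 95.4% under H3K27me3 mesas, 91.2% under Ras-induced and 33.1% under replicative H3K4me3 mesas. The next was at chr8:1-6300000, the start of the list on that chromosome, with 94.2%, 54.1% and 27.6% in the same order. Both were therefore covered by Ras-induced H3K4me3 mesas over more than 50% of their length. The LAD at chr17:46670001-52080000 (5.41 Mb) differed from these: its H3K27me3 cover was 65.3%, canyons (stretches with less H3K27me3 in senescence) took 5.96%, and canyons took 48.4% of its flanks. The LAD at chr2:122220001-127500000 was 97.1% covered by 1 mesa, and canyons took 43.8% of its flanks as well. That at chr9:27190001-32390000 was 95.2% covered. In these last 3 LADs Ras-induced H3K4me3 cover lay between 31.7% and 34.2%.

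The 3 longest LADs of the group on chromosome X were longer than any of its LADs on autosomes. The LAD at chrX:135120001-149180000 (14.06 Mb) was 98.6% under H3K27me3 mesas, with 12.8% under replicative and 40.7% under Ras-induced H3K4me3 mesas, and its flanks were all but completely under H3K27me3 mesas. The LAD at chrX:114760001-128460000 (13.70 Mb) had 76.1%, 26.1% and 16.4%. The LAD at chrX:1-8770000 had 55.1%, with 20.8% and 41.7%. No canyon met these 3 LADs.

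**Figure D2:**
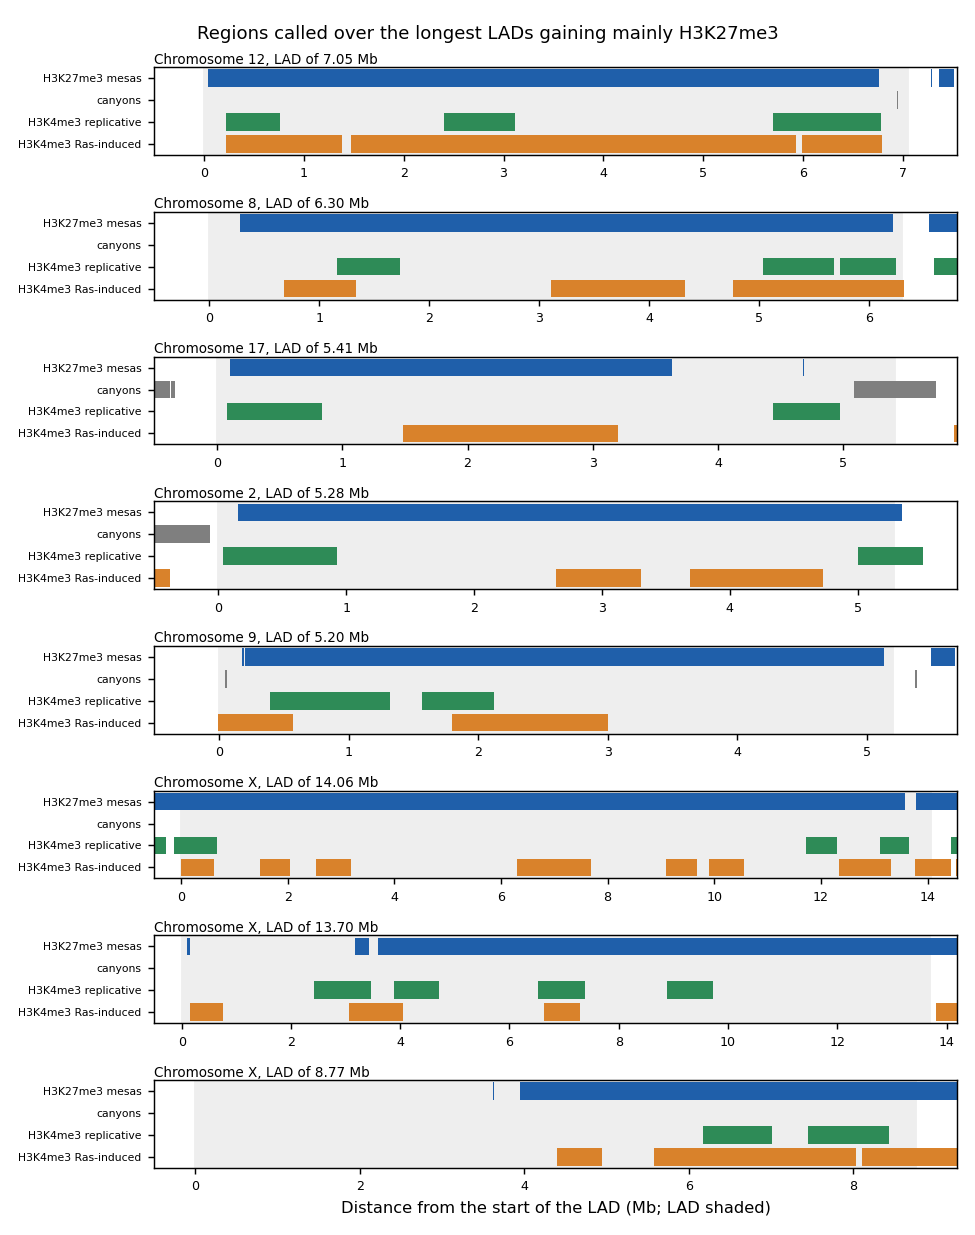
Regions called over the 5 longest autosomal and 3 longest X-chromosomal LADs of the group; the horizontal axis is the distance from the LAD start in Mb, the LAD is shaded, and each row of bars is 1 list. H3K27me3 mesas fill most of each LAD, while H3K4me3 mesas, apart from the Ras-induced ones on chromosome 12, form shorter separate blocks that differ between replicative and Ras-induced senescence.

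Chromosomes differed widely in how many of their LADs belonged to the group. On autosomes the share was 9.75 ± 4.93% of LADs (SD, n = 22 autosomes), from 1.40% on chromosome 4 (2 of 143) to 21.7% on chromosome 8 (20 of 92). Chromosome X stood above this range with 44.7% (21 of 47), and 52.5% of its LAD base pairs. In base pairs, chromosome 8 followed with 35.9%, chromosome 7 with 30.9% and chromosome 9 with 27.6%, and chromosomes 4 and 13 were lowest with 0.572% and 2.17%. Among LADs of at least 500 kb, X was again highest with 14 of 35, followed by chromosome 8 with 34.7% and chromosome 9 with 32.4%, and chromosome 4 was lowest with 0 of 69, against an autosomal mean of 17.4 ± 8.84% (SD, n = 22 autosomes).

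**Figure D3:**
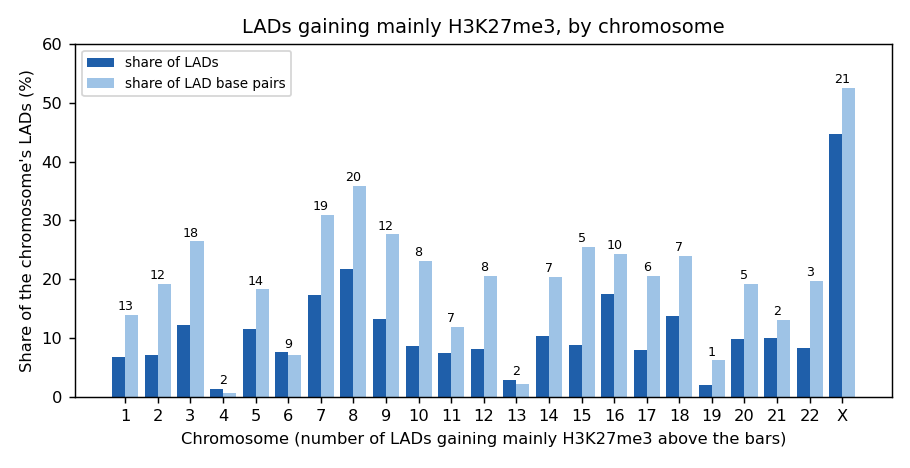
Share of each chromosome's LADs (dark bars) and of its LAD base pairs (light bars) that belong to the group, in %, with the number of LADs above the bars. Chromosome X is highest with 21 LADs and 52.5% of base pairs, and chromosome 4 is lowest with 2 LADs.

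The group lay nearer to chromosome ends than comparison LADs, but not nearer than the 84 LADs left out because all 3 mesa lists covered them. The median distance to the nearer end of the mapped span was 20.2 Mb, against 33.4 Mb for comparison LADs and 30.2 Mb for all LADs, and it was 15.3 Mb for the 84. Within 5 Mb of an end lay 38 of the 211 LADs, or 18.0%, against 10.7% of all LADs. Those 38 were shorter, with a median of 745 kb, and 1 of them was on X.

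Members of the group lay side by side. In 111 of the 211 (52.6%) an adjacent LAD also belonged to the group, while 18.3% of all LADs had such a neighbour. These 111 formed 42 runs of at least 2 LADs, and the other 100 stood alone. On X all 21 had such a neighbour, and on autosomes 90 of 190 did (47.4%). The longest run by number held 7 LADs at chrX:19640001-37590000 (17.95 Mb), of which 93.0% was under H3K27me3 mesas, gaps included. A run of 6 at chr8:49990001-57950000 (7.96 Mb) was 83.3% covered, and a run of 5 at chrX:114760001-149430000 (34.67 Mb) was 89.99% covered. The other run of 5, at chrX:1-10290000, was 61.7% covered. Ras-induced H3K4me3 cover differed widely between these runs, and replicative cover less. Replicative and Ras-induced mesas took 16.6% and 8.62% of the run of 7 and 19.8% and 22.3% of the run of 6. In the 3 runs of 4 LADs, on chromosomes 3, 7 and 1, Ras-induced cover was 66.1%, 62.6% and 78.0%. Replicative cover there was 32.9%, 15.7% and 18.6%. Replicative and Ras-induced mesas took 25.1% and 28.4% of the run at chrX:114760001-149430000, and 17.7% and 41.4% of that at chrX:1-10290000.

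Within such runs the gain continued across the stretches between LADs, which in proliferating cells do not count as lamina-associated. The 69 gaps between 2 LADs of the group had a median length of 150 kb and 79.8 ± 39.3% (SD over gaps) of a gap lay under H3K27me3 mesas. In 54 of the 69 (78.3%) the cover was at least 50%, against 8.00% of all 2025 gaps. The 215 gaps between a LAD of the group and a comparison LAD, with a median of 300.0 kb, had 17.1 ± 34.5%, and the 1317 gaps between 2 comparison LADs 1.41 ± 9.16%. Canyons took the reverse order, at 1.75 ± 12.2%, 22.95 ± 37.5% and 54.0 ± 47.5% of the gap. Mesas and canyons are calls of gain and loss of the same mark, so these orders are not separate results, and a mesa that encloses neighbouring LADs and their gap enters the LAD and gap values alike.

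Flanks of 500 kb on each side repeated this pattern at equal LAD length. The comparison averaged comparison LADs in 5 length classes (divided at 250, 500, 1000 and 2000 kb) and weighted the classes by the number of LADs of the group in each. H3K27me3 mesas covered 43.7% of the flanks of the group and 5.63% of the flanks of comparison LADs of the same length, a difference of 38.1 points. The difference was positive on 18 of the 18 chromosomes with at least 5 LADs of the group (36.6 ± 15.3 points, mean ± SD over chromosomes), and lowest on chromosome 15, at 10.6 points. In flank base pairs that belong to no LAD the means were 40.8% and 3.80%. Flanks can share a mesa with the LAD that was chosen on it, as can LADs near each other, and the differences have no test.

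Losses of H3K27me3 were scarce inside and around these LADs. Canyons met 61 of the 211, took at most 21.6% of any one, and covered 1.32 ± 3.18% on average (SD over LADs), whereas 64.2% of all LADs were met by a canyon. Inside a LAD this is mostly fixed by the choice, since the lists of gain and loss hardly overlap. In the flanks, canyons covered 15.5% for the group and 41.8% for comparison LADs of the same length, a difference of -26.2 points, which was negative on 17 of 18 chromosomes (-22.1 ± 15.6 points, SD). The exception was chromosome 15, at 19.7 points. Against the 828 comparison LADs that canyons covered to under 50%, an alternative chosen after seeing the data, the flank difference was -7.10 points. This flank result is not separate from that for H3K27me3 mesas, which covered 43.7% of the flanks against 5.63%. Flank base pairs under a mesa are hardly open to a canyon call.

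**Figure D4:**
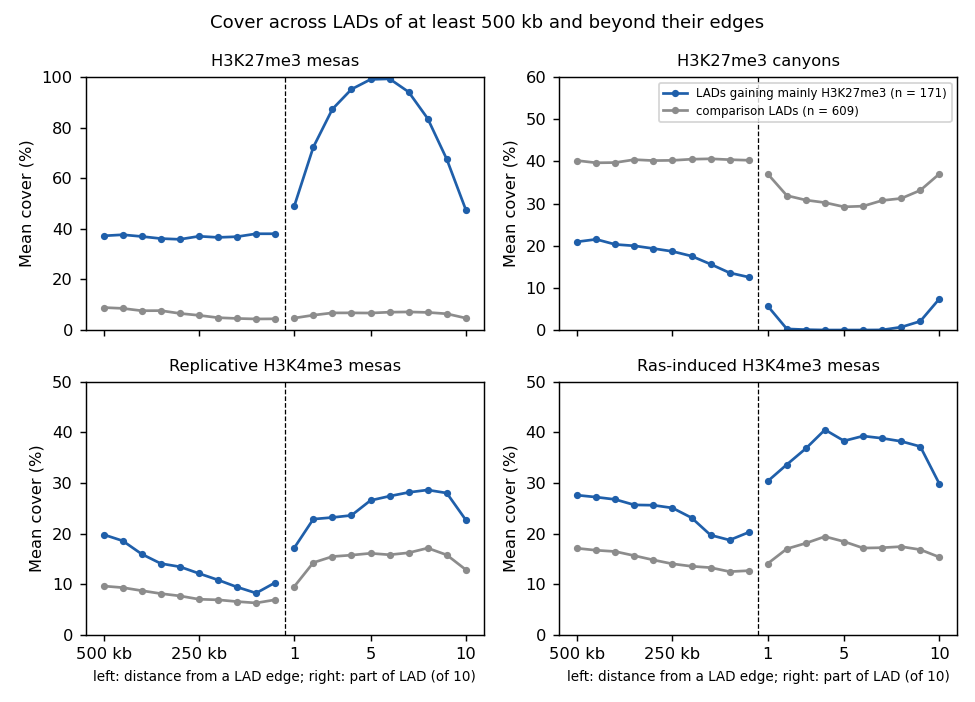
Mean cover in % by each list across LADs of at least 500 kb, in 10 equal parts from start to end (right of the dashed line), and in 50 kb steps up to 500 kb outside, averaged over the start and end sides (left), for 171 LADs of the group and 609 comparison LADs. The 171 LADs lie above the comparison LADs for all 3 mesa lists and below them for canyons, at every step plotted.

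The profile across LADs of at least 500 kb located the marks. With the LAD divided into 10 equal parts, H3K27me3 cover in the 171 such LADs of the group was 49.0% in part 1, 99.1% in part 5 and 47.6% in part 10. The high centre is largely tied to the choice, because a single stretch over more than 50% of a LAD must include its middle. The rule itself asks for summed cover, but in 193 of all 211 LADs 1 stretch covered at least 50%. Outside, H3K27me3 cover was 38.1% in the first 50 kb and still 37.2% at 450 to 500 kb, against 4.43% and 8.89% for 609 comparison LADs. Canyons covered 12.6% of the first 50 kb outside the group and 20.9% at 450 to 500 kb, against 40.3% and 40.2%. Both H3K4me3 lists covered the inside of these LADs more than the zone just beyond the edge. Ras-induced cover was 20.2% in the first 50 kb outside, 30.4% in part 1 and 38.3% in part 5, and replicative cover was 10.3%, 17.2% and 26.5%. In comparison LADs the Ras-induced values were 12.7%, 14.1% and 18.4% at the same places, and the replicative ones 6.90%, 9.51% and 16.1%. At 450 to 500 kb outside, Ras-induced cover was 27.6% for the group and 17.1% for comparison LADs, and replicative cover 19.8% and 9.61%. The replicative value of the group there was above that in part 1.

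The name of the group, a gain mainly of H3K27me3, held for part of it. H3K27me3 cover exceeded the cover by each H3K4me3 list in 159 of the 211 LADs (75.4%), against 17.4% of all LADs. It exceeded the cover by the union of the 2 H3K4me3 lists in 154 (73.0%, against 16.7% of all LADs). The rule asks for at least 50% H3K27me3 cover, so these 2 contrasts with all LADs are largely fixed by the choice. Neither H3K4me3 list reached 50% in 114 (54.0%), a lower share than in all LADs (66.1%) or comparison LADs (77.8%). The other 97 (46.0%, against 22.0% of all LADs) had at least 50% under 1 list: 66 were at least 50% covered by Ras-induced mesas and 31 by replicative ones; LADs under both lists to that extent had been left out. The shares were 31.3% and 14.7%, against 14.6% and 7.32% of all LADs, which still include those under both lists. Comparison LADs, with the same removal, had 14.7% and 7.47%, and 22.2% under exactly 1 list. Within each length class the Ras-induced share was higher in the group than in comparison LADs. The replicative share was 9.21% against 8.76% at 2000 kb and over and 0% against 3.69% under 250 kb. It was higher in the group in the classes between. Since the rule chose LADs by H3K27me3 cover and removed LADs by H3K4me3 cover, these shares describe the group and have no test.

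In 60 of the LADs no base pair lay under either H3K4me3 list (28.4%, against 54.9% of all LADs). Their median length was 535 kb. The share met by neither list was lower in the group than in comparison LADs in each length class: 72.7% against 80.2% under 250 kb, 55.6% against 75.5% at 250 to 500 kb and 46.2% against 60.8% at 500 to 1000 kb. It was 13.95% against 41.7% at 1000 to 2000 kb, and 5.26% (4 of 76) against 33.6% (46 of 137) at 2000 kb and over. The longest of the 60 was at chr3:94890001-98990000 (4.10 Mb), with 78.5% under H3K27me3 mesas. It was followed by a LAD at chrX:31270001-34710000 (3.44 Mb), which 1 mesa covered completely, and one at chr7:48300001-50700000 (2.40 Mb), with 76.4%. The shortest region measured 502 kb in the replicative and 501.0 kb in the Ras-induced H3K4me3 list, against 4.30 kb among H3K27me3 mesas, and any shorter gain of H3K4me3 in these LADs would not be listed.

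Ras-induced H3K4me3 mesas met more of the LADs than replicative ones, in the group as among all LADs. They met 120 of the 211 LADs (56.9%, against 37.3% of all LADs), and replicative ones met 96 (45.5%, against 27.9%). Ras-induced cover was the higher in 103 LADs (48.8%, against 27.9% of all LADs) and replicative cover in 48 (22.7%, against 14.9%). Mean cover was 34.4 ± 36.2% by Ras-induced and 21.1 ± 28.5% by replicative mesas (SD over LADs). The Ras-induced list is the larger, with 806 regions against 648. Relative to comparison LADs of the same length, Ras-induced cover was higher by 17.7 points (34.4% against 16.7%), with a positive difference on 16 of 18 chromosomes (17.1 ± 10.99 points, SD). It was highest on chromosome 12, at 30.8 points, and negative on chromosome 18, at -11.1 points, and on X, at -4.15 points.

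For replicative H3K4me3 the difference was smaller than its spread between chromosomes. Cover was 21.1% in the group and 12.7% in comparison LADs of the same length, or 8.35 points more. It was positive on 11 of 18 chromosomes, with a mean of 3.37 ± 14.6 points (SD), from -21.9 points on X to 32.1 points on chromosome 12. On X the 21 LADs of the group had 24.5% replicative cover and the 15 comparison LADs, weighted to the same lengths, 46.4%; on autosomes the means were 20.7% and 11.99%. The direction also depended on the comparison chosen. Against all other LADs, those under both H3K4me3 lists included, replicative cover differed by -3.58 points and Ras-induced cover by 6.02 points. That comparison removes such LADs from the group alone, which lowers both differences by construction. With no removal on either side the differences were 17.2 and 25.2 points.

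**Figure D5:**
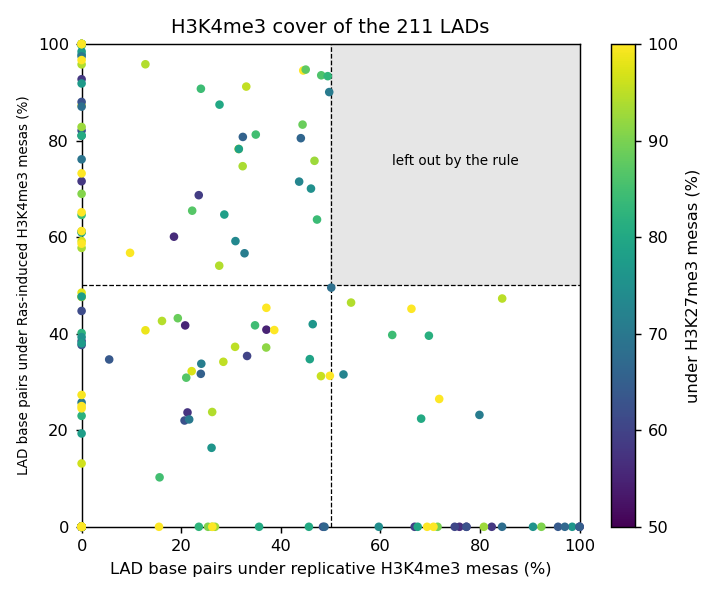
Replicative (horizontal axis) against Ras-induced (vertical axis) H3K4me3 mesa cover, in % of base pairs, for each of the 211 LADs, coloured by H3K27me3 mesa cover. Many points lie on an axis, where 1 list does not meet the LAD, 60 of them lie at the origin, and the grey square is empty by the rule.

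Some LADs were at least 50% under 1 H3K4me3 list and met by no region of the other. The rule had removed LADs at least 50% under both lists, whereas all LADs still include them. Ras-induced cover was at least 50% with no replicative mesa in 38 LADs (18.0%, against 12.0% of all LADs), of which the longest was at chr10:106110001-110960000 (4.85 Mb), with 96.9% H3K27me3 and 59.2% Ras-induced cover. Others were at chr7:69820001-72890000, with 79.7% and 60.9%, and at chr22:45890001-48610000, with 94.0% and 95.8%. The reverse held in 21 LADs (9.95%, against 5.32% of all LADs), of which the longest was at chrX:21900001-24090000 (2.19 Mb), with 79.5% H3K27me3 and 67.5% replicative cover. A LAD at chr12:101050001-102710000 had 92.6% and 80.8%, and a fully covered LAD at chrX:133770001-135050000 had 69.4% replicative cover. Among comparison LADs, with the same removal, the 2 shares were 13.0% for Ras-induced and 5.52% for replicative mesas alone. The 38 LADs with Ras-induced mesas alone had a median H3K27me3 cover of 86.9% and the 21 with replicative mesas alone 66.6%.

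The chromosomes of the group also differed in their H3K4me3. No replicative mesa met any of the 7 LADs on chromosome 18, the 3 on chromosome 22 or the 2 on chromosome 4. Replicative mesas met 27.9% of all LADs and 45.5% of the group, so an absence among so few LADs says little. Shares over all LADs of these chromosomes were not computed. Ras-induced cover of the group on chromosome 18 averaged 16.4%. On chromosome 11 replicative cover averaged 41.9% over 7 LADs, and on chromosome 15 Ras-induced cover averaged 55.6% over 5. LADs wholly under H3K27me3 mesas had less replicative H3K4me3 than the rest of the group, with a mean cover of 7.98% in the 47 such LADs against 24.2% to 26.2% in the other classes of H3K27me3 cover. Those 47 are also the shortest class. The longest of them differed: the LAD at chrX:128720001-133440000 (4.72 Mb) and that at chr3:4870001-8480000 (3.61 Mb), each wholly inside 1 mesa, had 49.9% and 66.2% under replicative and 31.3% and 45.2% under Ras-induced mesas, while no H3K4me3 mesa met the third longest, the LAD at chrX:31270001-34710000.

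Inside the LADs of the group, and of comparison LADs as well, H3K4me3 lay more on the parts under H3K27me3 mesas than on the rest. In the group, of the 325 Mb under H3K27me3 mesas, 42.9% was also under Ras-induced and 26.3% under replicative mesas, against 23.7% and 18.5% of the 66.9 Mb not under H3K27me3 mesas. Counted by LAD, among those met by the list and not fully covered by H3K27me3 mesas, the share was higher under the H3K27me3 mesa in 66 and lower in 31 of 103 LADs for Ras-induced mesas, and higher in 57 and lower in 28 of 88 for replicative ones. On X the Ras-induced shares were 28.6% and 19.9% of base pairs, with 3 LADs higher and 4 lower of 8. The 371 comparison LADs met by a mesa had the same order, with 34.1% of the base pairs under H3K27me3 mesas and 18.0% of the others under Ras-induced mesas, and 33.9% and 15.3% under replicative ones. By LAD, the share there was higher under the H3K27me3 mesa in 84 and lower in 61 of 155 for Ras-induced mesas, and higher in 81 and lower in 44 of 127 for replicative ones. The uncovered parts of the group lie mainly near LAD edges, where H3K4me3 mesas were also less frequent in comparison LADs, and what that position contributes was not tested.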

How the data were processed

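The submitters' processing notes name Bowtie 0.12.5 and hg18. The authors deposited 5 region lists of chromosome, start and end; per the file headers, LADs come from merged lamin B1 windows, and the replicative H3K4me3 list combines stretches of more H3K4me3. The score column the authors deposited with the LADs is 0 throughout, and the other values are starts and ends in bp. For the region caller, its thresholds and how libraries were combined, the method is not given in the sources used here. The direction of the other lists is taken from their names (mesa, gain; canyon, loss). LADs on chromosome Y and the mitochondrial genome were left out.

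Cover was computed in base pairs with Python 3.11.15 and numpy 2.4.6, checked on simulated data. Flanks were cut at the ends of the span of all lists. LADs were named by rules on length, cover and threshold. No test was made: the LADs were chosen from the same lists, and there are no samples to permute. The group, the lists and the comparisons were chosen with earlier results of these data known. Genes and sequences were not analysed here, because the gene table at hand is of another build.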

Additional observations from a re-analysis of the deposited data

How the results depend on the processing

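Each of 9 results was recomputed under other thresholds, length limits and comparison sets and with each chromosome left out. Of 85 values under alternatives other than the omission of a chromosome, 76 stayed within the spread (1 SD over chromosomes, the 95% exact binomial interval for a share, or a factor of 1.5 for a count). The binomial interval treats LADs as independent, though 92 of them share a mesa with another. For replicative H3K4me3 cover the SD, 14.6 points, exceeds the difference itself, so the tally says little about stability. The threshold of 75% left 138 LADs. Without the exclusion by H3K4me3, 61.4% of the LADs were at least 50% covered by an H3K4me3 list; any overlap gave 71.6% and a threshold of 75% gave 28.0%, against 46.0%. An adjacent LAD of the group was found for 43.3% when LADs of at least 500 kb alone could belong and for 19.0% when the gap had to be at most 100 kb, against 52.6%. The difference in replicative H3K4me3 cover, 8.35 points, was 17.2 points without the exclusion by H3K4me3 and 5.22 points at a threshold of 75%. Both moves were smaller than its SD over chromosomes. Against all other LADs the difference in replicative H3K4me3 cover reversed to -3.58 points and that in Ras-induced cover was 6.02 points. The added LADs are those under both H3K4me3 lists, which the rule keeps out of the group, so both differences fall by construction. The canyon difference in flanks was -7.10 points against LADs under 50% canyon cover. With each chromosome left out in turn, the share on X ran from 0 to 10.99%, the count from 190 to 210, the replicative difference from 7.29 to 9.33 points, the Ras-induced from 16.8 to 18.5, and the flank differences from -27.0 to -24.8 points for canyons and 33.9 to 39.0 points for H3K27me3 mesas. No paired analysis was possible because the lists carry no value per replicate. Regions of different lists were called at different scales, and depth limits the calls to an extent that the coordinates do not show.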

Other observations

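The 84 LADs that were left out because both H3K4me3 lists also covered them were close to the group in length and in the canyon cover of their flanks, and differed in other values. Their median length was 1290 kb against 1250 kb, and canyons covered 16.1 ± 23.7% of their flanks against 15.5 ± 22.6% (SD over LADs). They were met by a median of 2 H3K27me3 mesas against 1, and the longest stretch within a LAD had a median of 754 kb against 870 kb. H3K27me3 mesas covered 35.0 ± 33.5% of their flanks, against 43.7 ± 34.6% for the group. Their flanks had more H3K4me3, with 40.3 ± 28.6% under Ras-induced and 20.4 ± 22.2% under replicative mesas, against 25.6 ± 29.0% and 13.6 ± 19.8%. The 84 were set apart by H3K4me3 cover, and no H3K4me3 mesa is shorter than 501.0 kb. A mesa over such a LAD can reach into its flanks, so this difference is not separate from the choice. Chromosome 1 held 10 of these LADs beside 13 of the group, and chromosome 7 held 2 beside 19.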
